A study of Homo sapiens with 34 samples.

Results

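The 10 genes MYOZ2, MYPN, TRIM63, TRIM55, FHL2, CSRP3, LDB3, TCAP, NEXN and ABRA encode proteins of the muscle Z-disc and of the response of muscle to stress. They were taken by symbol from a table of raw read counts, 1 RefSeq row for each gene (the row with the largest total), and all 10 were found among 23185 gene symbols. RNA was sequenced from H1 cells, an established line of human embryonic stem cells (ESCs), at days 0, 2, 6 and 10 of differentiation toward cardiomyocytes. The NKX2-5 shRNA, ZEB2 shRNA and ZNF503 shRNA cells each carried a lentiviral hairpin against the named transcription factor. WT cells served as controls and had received either an empty vector or an shRNA to GFP, so every group had been infected with lentivirus and selected with puromycin. For each target, the 1 shRNA line of several that knocked down best was used, so a line stands for a single hairpin. Differentiation was driven by the GSK3β inhibitor CHIR99021 in all lines alike, then by the Wnt inhibitor IWP2, and insulin was added between days 6 and 10. Each of 15 groups held 2 libraries in the values below, which at day 10 are replicates 3 and 4 for WT and ZEB2 shRNA cells and 1 and 2 for NKX2-5 shRNA cells. Where a comparison sets replicates 1 and 2 against 3 and 4, a difference between replicate sets cannot be told apart from one of line or day. The ZNF503 shRNA line was not analysed here at day 10.

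The Z-disc anchors the thin filaments of neighbouring sarcomeres, the repeating contractile units of striated muscle, and it is also a site where stretch and load are sensed. LDB3 (also called Cypher or ZASP), MYOZ2 (calsarcin) and MYPN (myopalladin) bind alpha-actinin there. NEXN (nexilin) is an actin-binding Z-disc protein, and TCAP (telethonin) caps the end of titin. CSRP3 (muscle LIM protein) and FHL2 are LIM-domain proteins found both at the sarcomere and in the nucleus. TRIM63 (MuRF1) and TRIM55 (MuRF2) are muscle RING-finger proteins that bind titin, and TRIM63 is a ubiquitin ligase that rises in muscle wasting. ABRA (STARS) binds actin and promotes transcription by serum response factor (SRF), which recognises a sequence called the CArG box. Most of these genes are markers of differentiated heart and skeletal muscle, while FHL2 is also expressed outside striated muscle.

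The bases upstream of 3 of the genes are shown because they carry sequences bound by muscle transcription factors, and because these genes all rose in WT cells between days 6 and 10. They are the 250 bases before the start in RefSeq promoter entries, matched to the GRCh37 genome, 5′ to 3′ on the strand of the gene and ending next to the transcription start. Capitals mark matches to the CArG box, the MEF2 box and, in FHL2, the GATA sequence AGATAA read on the other strand.
MYOZ2, chr4:120056737-120056986, plus strand: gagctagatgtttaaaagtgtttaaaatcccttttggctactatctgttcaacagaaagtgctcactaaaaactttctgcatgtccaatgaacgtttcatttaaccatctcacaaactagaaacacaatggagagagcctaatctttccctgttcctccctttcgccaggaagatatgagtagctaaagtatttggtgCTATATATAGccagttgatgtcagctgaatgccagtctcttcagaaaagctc
FHL2, chr2:106054971-106055220, minus strand: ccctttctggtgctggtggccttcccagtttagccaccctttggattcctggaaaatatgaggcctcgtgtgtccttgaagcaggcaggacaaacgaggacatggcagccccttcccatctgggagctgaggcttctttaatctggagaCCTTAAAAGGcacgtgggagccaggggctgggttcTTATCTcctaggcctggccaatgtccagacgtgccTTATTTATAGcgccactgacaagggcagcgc
LDB3, chr10:88428018-88428267, plus strand: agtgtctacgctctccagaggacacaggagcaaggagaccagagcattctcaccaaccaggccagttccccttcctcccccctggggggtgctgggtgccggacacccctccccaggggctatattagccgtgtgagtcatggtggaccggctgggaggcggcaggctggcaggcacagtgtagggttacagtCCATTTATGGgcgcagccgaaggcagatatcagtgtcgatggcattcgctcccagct

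RefSeq promoter entries were matched for 6 of the 10 genes, with 10 start sites. CSRP3, TCAP, TRIM55 and ABRA had no entry. Of the 6 genes, 2 held a CArG box (FHL2 and LDB3), which occurs in 1.17% of 34935 promoters of this length on either strand. Gene counts here take a match at any start site, and FHL2 and LDB3 have more than 1. The shares are per single promoter, so counts and shares are unlike measures. The MEF2 box was present in MYOZ2, 52 to 43 bases before the start, and in FHL2, against 2.81% of all promoters. FHL2 held 3 of these sequences in the window shown, a CArG box from 101 to 92 bases, a GATA match from 66 to 61 bases and a MEF2 box from 31 to 22 bases before the start. AGATAA occurred in 9.19% of promoters. The FHL2 window shown is start site 2 of 4, and start site 1 overlaps it with the same matches. Start site 3 of FHL2 held no CArG, MEF2 or AGATAA match, and start site 4 held only a CArG box of these. Which start these cells used was not tested. MYPN and TRIM63, which also rose in WT cells between days 6 and 10, held no CArG, MEF2 or AGATAA match, nor did NEXN. A search for TNAAGTG, the NKX2-5 sequence, found no match in the 6 genes, against 8.74% of promoters, so these letters are not in these windows. The E-box CANNTG was present in 5 of 6 genes and in 61.8% of promoters, and CACCT, a sequence bound by ZEB factors that overlaps some E-boxes, in 3 of 6 and 45.4%. These matches describe the letters and do not show binding.

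Counts over 1 row per gene summed to between 9189588 and 90798116 per library, and at day 10 to at most 29548573. Levels below are CPM, the counts scaled to a common normalized library size. Where no read was counted, up to 3 counts remain possible, a limit of 0.0336 to 0.0801 CPM in the libraries of day 0 and of 0.0927 to 0.323 CPM in those of day 10. The targeted genes were read first. At day 6, NKX2-5 was at 1.3% ± 0.243 of the WT mean in NKX2-5 shRNA cells, ZEB2 at 58.5% ± 1.83 in ZEB2 shRNA cells and ZNF503 at 6.98% ± 0.297 in ZNF503 shRNA cells (SD, n = 2). ZEB2 was lower in NKX2-5 shRNA and ZNF503 shRNA cells at that day, at 21.5% ± 0.00244 and 12.4% ± 1.32 of WT, than in the line that targets it. NKX2-5 was also low in ZNF503 shRNA cells (3.69% ± 0.875 of WT), and ZNF503 in NKX2-5 shRNA cells (8.26% ± 2.45). At day 2, ZNF503 was at 90.1% ± 35.0 and ZEB2 at 66.4% ± 5.43 of WT in their own lines, and NKX2-5 had at most 6 counts in its own line. At day 10, NKX2-5 was at 1.38% and ZEB2 at 49.5% of WT in their own lines. MYL2 was at or below 3 counts in all groups of day 6 and in NKX2-5 shRNA cells at day 10, and TNNI3 in NKX2-5 shRNA cells at day 6, among 10 cardiomyocyte markers. The summed level of these markers relative to WT was 0.828% in NKX2-5 shRNA, 50.5% in ZEB2 shRNA and 2.98% in ZNF503 shRNA cells at day 6. At day 10 it was 1.9% ± 1.49 in NKX2-5 shRNA and 30.2% ± 7.95 in ZEB2 shRNA cells (SD, n = 2). Of 9 skeletal muscle markers, the factors MYOD1 and MYF5 stayed at or below 3 counts in each library of days 6 and 10. MYOG did not in WT and ZEB2 shRNA cells at day 10. The summed level of all 9 rose in WT libraries, though MYF5, MYF6, MYOD1 and TNNI2 were at or below 3 counts there at day 10. Only 3 of the 9 had enough counts to be tested against WT at days 6 and 10. The sums thus rest on few genes and do not describe the list as a whole. In CPM the sum in WT libraries spanned 1.09 to 1.94 (day 0), 27.3 to 31.9 (day 6) and 233 to 281 (day 10). On that last day NKX2-5 shRNA libraries had sums of 9.36 to 11.2 and ZEB2 shRNA libraries of 28.5 to 49.3. The part of the marker levels in the results below was not tested. These are bulk samples, in which fewer muscle cells and less RNA per muscle cell cannot be told apart.

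In WT cells, 9 of the 10 genes were called higher at day 6 than at day 0, and all 10 at day 10. A call required an 8-fold change and a false discovery rate (FDR) of 1%, the thresholds the study used at these days, in edgeR's quasi-likelihood test with p-values adjusted by Benjamini-Hochberg across the whole table. Of 17215 genes, 6.29% were called higher at day 6 and 10% at day 10. At 5% FDR with no fold threshold all 10 were higher at both days, against 31.3% and 39.1%. The median log2 fold change of the 10 genes was 8.40 by day 6 and 10.06 by day 10, and 6.35 and 8.88 when the 3 genes without a count at day 0 were set to their lower bound, against 0.03 and 0.10 over all genes.

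Before cardiac specification most of these genes were at or near 0 counts. ABRA (NM_139166, chromosome 8, 107771711 to 107782472, minus strand, 2 exons, GRCh37) had 0 counts in all 16 libraries of days 0 and 2. Over the same 16 libraries, CSRP3 (NM_003476, chromosome 11, 19203577 to 19232118, minus strand) had at most 1 count, TRIM63 (NM_032588, chromosome 1, 26377792 to 26394927, minus strand) at most 2, MYOZ2 (NM_016599, chromosome 4, 120056987 to 120108944) at most 3 and MYPN (NM_001256268, chromosome 10, 69847654 to 69971774) at most 6. At day 2 against day 0, TRIM63 was the 1 gene called higher in WT cells (5.26% of all genes, at 4-fold and 10% FDR), on 2 counts in each library against 0, which is under the limit above, so no fold is given. At 5% FDR, TRIM63 was higher and FHL2 lower (21% and 23.1% of all genes). FHL2 had the highest early level. FHL2 (NM_201555, chromosome 2, 105974169 to 106054970, minus strand) stood at 17.2 and 15.6 CPM in the WT libraries of day 0 and at 8.65 and 8.03 CPM at day 2, lower at day 2 with a log2 fold change of -0.92 (standard error, SE, 0.19; adjusted p = 0.00293, edgeR's quasi-likelihood test). NEXN (NM_144573, chromosome 1, 78354198 to 78409580), was at 4.27 and 4.68 CPM at day 0. Over the 16 libraries of days 0 and 2, LDB3 had 2 to 66 counts, TCAP 5 to 72 and TRIM55 0 to 12.

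By day 6 the muscle genes had risen in WT cells. CSRP3 reached 44.9 and 40.6 CPM and was at least 539-fold above day 0, and ABRA, at 25.6 and 19.1 CPM, was at least 282-fold above it. TRIM63 reached 4.42 and 3.97 CPM, at least 52.9-fold above day 0. MYOZ2, with 2 counts in all at day 0, rose 1495-fold (exact 95% counting interval 414 to 12354) to 38.8 and 39.9 CPM. In every one of these genes the 2 WT libraries of day 6 lay far above those of day 0. TRIM55 (NM_033058, chromosome 8, 67039131 to 67087720) reached 249 and 199 CPM. Its log2 fold change of 10.24 moved to 9.47 without WT day 0 replicate 1 and to 11.93 without replicate 2, which held 2 and 12 counts. LDB3 (NM_001171610, chromosome 10, 88426542 to 88495829) rose by 6.98 (SE 0.23, adjusted p = 5.11e-09) and NEXN by 5.47 (SE 0.18, adjusted p = 5.37e-09) on the log2 scale. TCAP (NM_003673, chromosome 17, 37821602 to 37822807), a gene of 2 exons, went from 0.133 and 0.523 to 7.76 and 5.15 CPM, a log2 fold change of 4.29 that was 3.62 and 5.55 without WT day 0 replicate 1 and replicate 2. FHL2 was above its level in ESCs by a small margin at 27.5 and 20.5 CPM, with 0.57 on the log2 scale (SE 0.17, adjusted p = 0.016), and this test was no longer passed at 5% FDR without WT day 0 replicate 2 or WT day 6 replicate 1, where the value ran from 0.34 to 0.78 over the libraries left out. MYPN had only 8 and 16 counts, 14.1-fold above day 0 (counting interval 3.49 to 123).

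**Figure D1:**
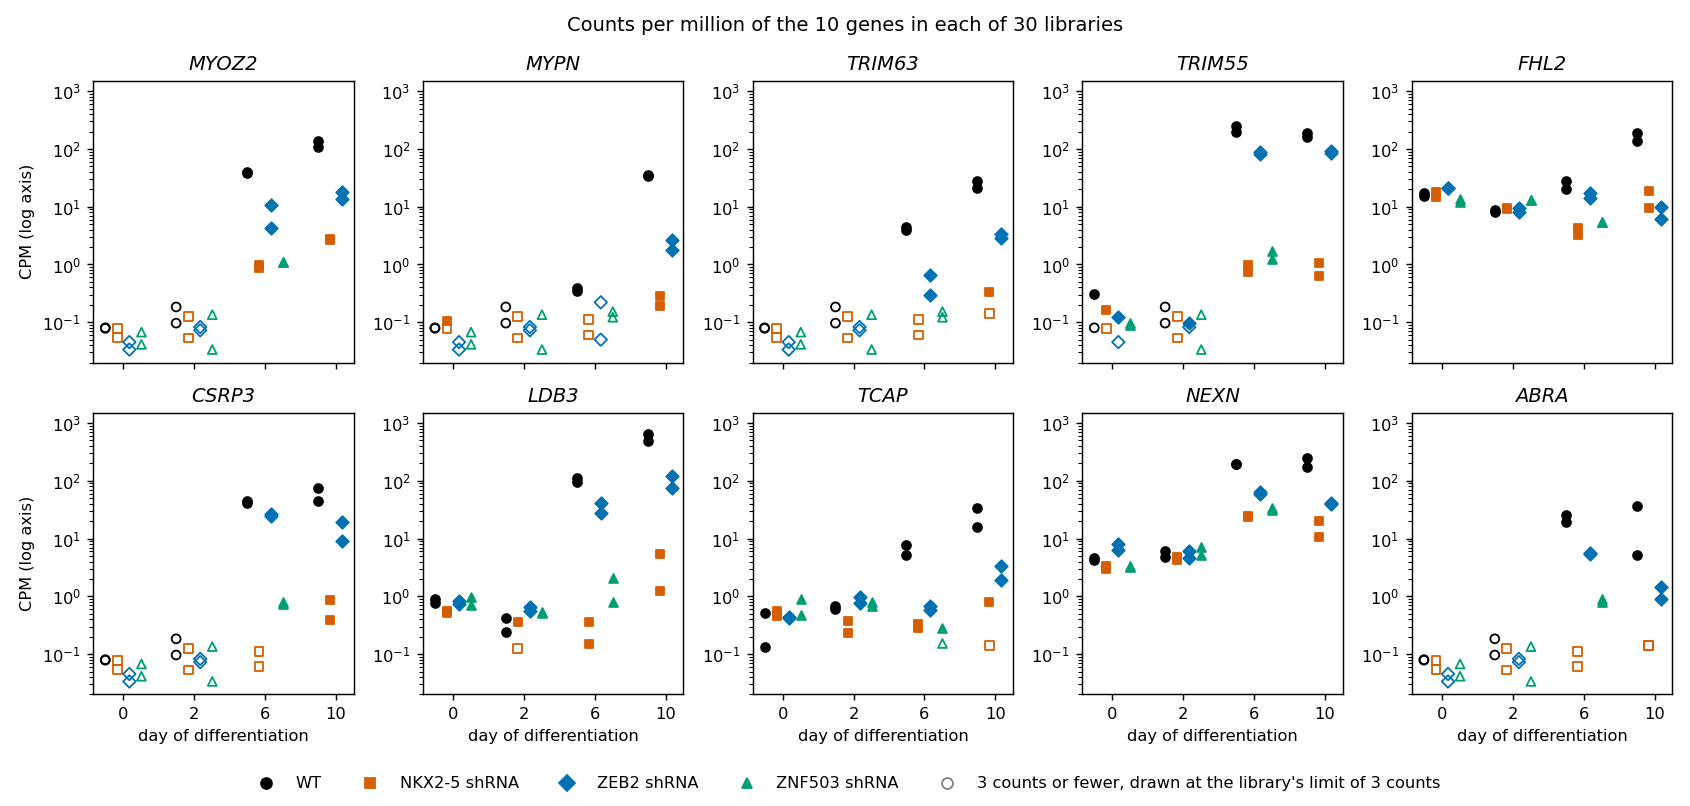
Each panel plots 1 gene, with the day of differentiation on the x axis and CPM on a log y axis. Points are single libraries (2 per group), open points have 3 counts or fewer and are drawn at the limit of 3 counts of that library. WT libraries are the highest of each gene at days 6 and 10, and FHL2 is the gene with 131 counts or more in every library of days 0 and 2.

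Between day 6 and day 10, 6 of the 10 genes rose further in WT cells. The largest change was that of MYPN, from 0.347 and 0.385 to 33.8 and 36 CPM, with 6.58 on the log2 scale (SE 0.34, adjusted p = 1.29e-06, edgeR's quasi-likelihood test), the 1 call among the 10 genes, against 2.73% of all genes called higher. FHL2 rose to 187 and 140.0 CPM, by 2.81 (SE 0.18, adjusted p = 2.02e-06) on the log2 scale. At 5% FDR without a fold threshold, 6 of 10 rose (28.3% of all genes), the others being TRIM63 by 2.6, LDB3 by 2.50, TCAP by 1.99 and MYOZ2 by 1.68 on the log2 scale. TCAP rose by 1.36 without WT day 10 replicate 3, where it was at 33.4 CPM against 16 CPM in replicate 4. TRIM55, NEXN, CSRP3 and ABRA were not past the test. TRIM55 was at 192 and 164 CPM at day 10, both below its day 6 libraries (adjusted p = 0.182). NEXN was at 246 and 177 CPM, on both sides of its day 6 libraries at 194 and 197 CPM (adjusted p = 0.417). CSRP3 was at 75.8 and 43.9 CPM (adjusted p = 0.0893). ABRA was at 37.3 CPM in replicate 3 and 5.16 CPM in replicate 4, so the WT libraries of day 10 disagree on this gene by more than on any other of the 10.

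Levels of different genes were compared per transcript length (CPM per kb of the MANE Select transcript). In WT cells at day 6 the order was led by TRIM55 at 83.7 ± 13.4 and NEXN at 59.6 ± 0.683 CPM per kb, followed by CSRP3 at 33.3 ± 2.37 (SD, n = 2). LDB3 came next at 19.3 ± 2.45. MYOZ2 (15.4 ± 0.293) and FHL2 (15.2 ± 3.15) did not differ beyond their spread, nor did ABRA (8.11 ± 1.67) and TCAP (6.72 ± 1.92), and TRIM63 (2.37 ± 0.18) and MYPN (0.0635 ± 0.00469) were lowest. At day 10 LDB3 (107 ± 22.3) and FHL2 (103 ± 21.0) led and did not differ beyond their spread. TRIM55 (66.6 ± 7.36) and NEXN (64.4 ± 14.8) followed, and then MYOZ2 (48.3 ± 7.21) and CSRP3 (46.6 ± 17.6), each pair again within its spread. TCAP was at 25.8 ± 12.8 and ABRA at 7.7 ± 8.24 CPM per kb. TRIM63 at 14 ± 2.69 CPM per kb stood below its relative TRIM55 at 66.6 ± 7.36 CPM per kb, and MYPN, at 6.06 ± 0.272, was the lowest mean.

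**Figure D2:**
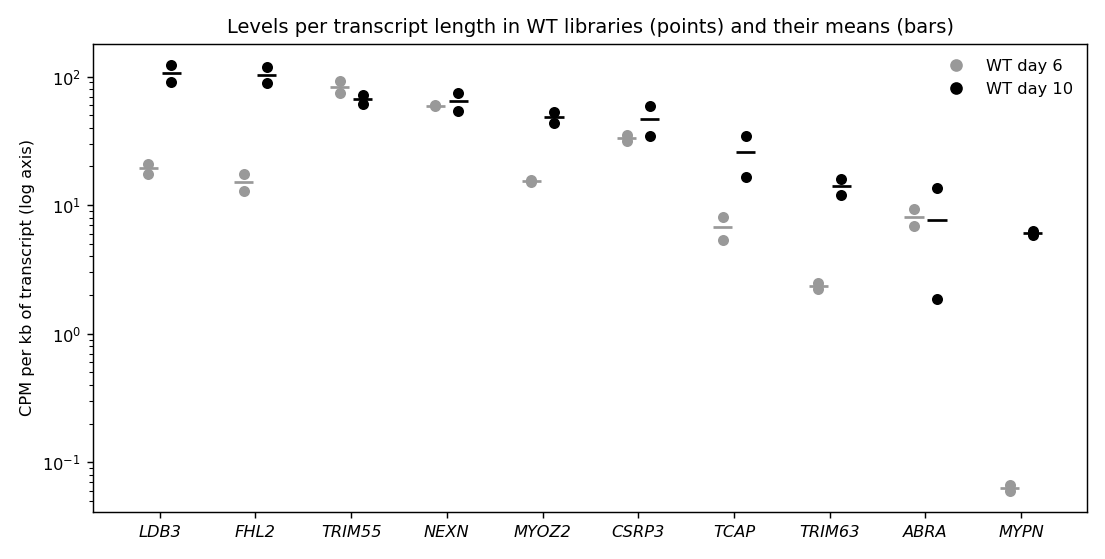
CPM per kb of transcript on a log y axis for the 10 genes in WT cells, with grey points for the 2 libraries of day 6, black points for those of day 10, and bars for their means. LDB3 and FHL2 pass TRIM55 and NEXN between the days, and the 2 ABRA points of day 10 lie far apart.

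In the shRNA lines at days 0 and 2, only FHL2, LDB3, TCAP and NEXN had enough counts to be tested, and none of them was called by edgeR's quasi-likelihood test, by DESeq2 or by the edgeR exact test. The thresholds were 2-fold and 10% FDR at day 0, where 4.03%, 2.21% and 2.57% of all genes were called in NKX2-5 shRNA, ZEB2 shRNA and ZNF503 shRNA cells, and 4-fold and 10% FDR at day 2, where 1.19%, 0.133% and 2.8% were. Unadjusted p-values under 0.05 numbered 1, 2 and 2 of 4 genes at day 0 and 1, 0 and 1 at day 2, in the same order of lines. For these unadjusted counts no share of all genes is given. FHL2 was the 1 gene past 5% FDR with no fold threshold, higher in ZNF503 shRNA cells at day 2 (13.1% of all genes were higher). Both of these libraries (13 and 13.2 CPM) lay above both WT libraries (8.65 and 8.03 CPM), with 0.59 on the log2 scale (SE 0.16, adjusted p = 0.015). Without any 1 of these 4 libraries FHL2 no longer passed, at values of 0.55 to 0.64.

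NKX2-5 shRNA cells at day 6 were far below WT in nearly all of this expression. Over the 10 genes the median level was 0.312% of the WT mean and the highest, FHL2, 15.6%. In each gene both NKX2-5 shRNA libraries lay below both WT libraries. The share of all genes separated in this way is not given, here or for the comparisons below, so such separations only describe the values. Of 9 genes tested (MYPN was too low), 8 were called lower, against 3.42% of 16441 genes, and all 9 passed 5% FDR, against 24.7%. CSRP3 had 0 and 2 counts where the WT libraries had 1035 and 1686, a 1623-fold difference with an exact 95% counting interval of 449 to 13409.7. ABRA also had 0 and 2 counts, against 590 and 793, an 825-fold difference (228 to 6819). TRIM63 had no count and was at least 49.2-fold lower. The titin-binding TRIM55 was at 0.735 and 0.962 CPM, lower than in WT by 8.00 on the log2 scale (SE 0.21, adjusted p = 1.49e-10, edgeR's quasi-likelihood test). LDB3 was at 0.147 and 0.361 CPM, a log2 fold change of -8.51 that became -9.42 without NKX2-5 shRNA day 6 replicate 2. In these cells MYOZ2, which binds calcineurin as well as alpha-actinin, was at 0.882 and 0.962 CPM, with -5.41 on the log2 scale (SE 0.35, adjusted p = 1.39e-07). TCAP was at 0.331 and 0.28 CPM, between the 2 WT libraries of day 0 (log2 fold change against WT -4.41, SE 0.42, adjusted p = 3.2e-06). MYPN had no count, at least 4.29-fold below the 8 and 16 counts of WT. NEXN kept the most after FHL2, at 24.3 and 23.4 CPM or 12.2% of WT, which was still above its 4.27 and 4.68 CPM in WT ESCs. FHL2, at 3.27 and 4.23 CPM, instead lay below the 14.7 and 18.3 CPM of the same line at day 0, a difference that was not tested. Its log2 fold change against WT was -2.67 (SE 0.22, adjusted p = 9.95e-07), short of 8-fold. Endoderm and hepatic markers (6 genes, none at or below 3 counts) summed to 3126 to 3227 CPM in NKX2-5 shRNA cells against 323 to 658 CPM in WT. All 6 were higher at 5% FDR (24.5% of all genes), and their part in the result was not tested.

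ZNF503 shRNA cells at day 6 were also far below WT in most of this expression. The median over the 10 genes was 2.9% of WT, 7 of 9 tested genes were called lower (2.91% of all genes), and all 9 passed 5% FDR (28.5%). TRIM63 again had no count, at least 30.6-fold below WT. TRIM55 was at 1.68 and 1.22 CPM, with -7.30 on the log2 scale (SE 0.21, adjusted p = 4.75e-10), and MYOZ2 at 1.12 and 1.09 CPM (-5.15, SE 0.36, adjusted p = 3.37e-07). CSRP3, at 0.814 and 0.729 CPM, had -5.79 on the log2 scale (SE 0.24, adjusted p = 4.6e-09), and ABRA, at 0.814 and 0.892 CPM, had -4.70 (SE 0.30, adjusted p = 1.57e-07). Every library of these genes lay below both WT libraries, again with no all-gene share given. LDB3 was at 2.04 and 0.811 CPM, a value of -6.23 that was -7.00 without ZNF503 shRNA day 6 replicate 1. TCAP was at 0.102 and 0.284 CPM, a value of -4.97 that was -5.94 without ZNF503 shRNA day 6 replicate 2. MYPN had 0 and 2 counts, 8.23-fold (2.04 to 71.8) below WT. FHL2, at 5.44 and 5.51 CPM, and NEXN, at 31.3 and 33.4 CPM, were below WT by less than 8-fold. Their log2 fold changes were -2.13 (SE 0.22, adjusted p = 6.99e-06) and -2.60 (SE 0.11, adjusted p = 6.54e-09, edgeR's quasi-likelihood test). The endoderm and hepatic markers summed to 2343 to 2478 CPM in ZNF503 shRNA cells. At 5% FDR 5 of 6 were higher than in WT (27.2% of all genes), and their part in this result was not tested.

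Set against each other at day 6, NKX2-5 shRNA and ZNF503 shRNA cells differed in 2 of the 9 tested genes, both lower with the NKX2-5 shRNA, against 0.158% of all genes. Both libraries of ZNF503 shRNA cells lay above both of NKX2-5 shRNA cells in these genes. In counts, CSRP3 was 29.6-fold (7.58 to 254) and ABRA 33.1-fold (8.54 to 283) higher in ZNF503 shRNA than in NKX2-5 shRNA cells, with adjusted p = 0.000316 and 0.000481 (edgeR's quasi-likelihood test). At 5% FDR, 4 genes were lower in NKX2-5 shRNA cells (8.8% of all genes), with LDB3 and NEXN added. Without NKX2-5 shRNA day 6 replicate 1 only CSRP3 and ABRA passed 5% FDR, without its replicate 2 NEXN was lost, and without ZNF503 shRNA day 6 replicate 1 LDB3 was lost, where its log2 fold change went from -2.27 to -1.51, while without NKX2-5 shRNA day 6 replicate 2 it was -3.18. TRIM63 and MYPN were at or below 2 counts in every library of both lines, so no fold is given for them.

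ZEB2 shRNA cells at day 6 kept an intermediate level. The median over the 10 genes was 28.1% of WT. Every ZEB2 shRNA library lay below both WT libraries in each gene, with no all-gene share given for this. TCAP was the 1 gene of 9 called (0.225% of all genes were called lower), at 0.683 and 0.59 CPM against 7.76 and 5.15 CPM in WT, with -3.29 on the log2 scale (SE 0.39, adjusted p = 0.000176, edgeR's quasi-likelihood test). No gene was called without WT day 6 replicate 1, and 2 were called without ZEB2 shRNA day 6 replicate 1 or WT day 6 replicate 2. At 5% FDR, 8 of 9 were lower (5.33% of all genes). MYOZ2, at 10.6 and 4.35 CPM, was at 19% ± 11.3 of WT (SD, n = 2), a log2 fold change of -2.32 that was -3.16 without ZEB2 shRNA day 6 replicate 1. TRIM55, at 89.6 and 81.5 CPM, was at 38.2% ± 2.55 of WT with -1.38 on the log2 scale (SE 0.14, adjusted p = 5.58e-05). TRIM63, at 0.666 and 0.295 CPM, had -2.92 on the log2 scale (SE 0.45, adjusted p = 0.00193) that was -3.79 without ZEB2 shRNA day 6 replicate 1. LDB3 was at 41.1 and 27.4 CPM (-1.58, SE 0.25, adjusted p = 0.00122), NEXN at 63.7 and 60 CPM (-1.65, SE 0.11, adjusted p = 2.05e-06) and ABRA at 5.63 and 5.31 CPM (-2.02, SE 0.24, adjusted p = 0.000188). Of the 8 genes past 5% FDR, CSRP3, the muscle LIM protein, was the least reduced. It was at 27.2 and 24.9 CPM (log2 fold change -0.70, SE 0.17, adjusted p = 0.0168), and it no longer passed without ZEB2 shRNA day 6 replicate 1 or replicate 2 or without WT day 6 replicate 1. FHL2, at 17.1 and 13.9 CPM, missed the test, with -0.61 on the log2 scale (SE 0.20, adjusted p = 0.0808). MYPN had no count in either ZEB2 shRNA library, at least 2.7-fold below WT.

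The difference between lines was itself tested. At day 6, NKX2-5 shRNA cells were lower than ZEB2 shRNA cells in 6 of 9 genes (3.52% of all genes called lower), MYOZ2, TRIM63, TRIM55, CSRP3, LDB3 and ABRA, and in 8 at 5% FDR (23.1%), with FHL2 and NEXN added. MYOZ2 had a log2 fold change of -3.09 that was -2.25 without ZEB2 shRNA day 6 replicate 1, and LDB3 of -6.93 that was -7.85 without NKX2-5 shRNA day 6 replicate 2. The count difference was 1033-fold for CSRP3 (286 to 8538), and TRIM55 had -6.62 on the log2 scale (SE 0.20, adjusted p = 7.48e-10, edgeR's quasi-likelihood test). ZEB2 shRNA cells were higher than ZNF503 shRNA cells in 4 of 9 genes (2.74% called higher), namely TRIM55, CSRP3, LDB3 and TRIM63, and in 9 at 5% FDR (25.6%). LDB3 had a log2 fold change of 4.66 that was 5.43 without ZNF503 shRNA day 6 replicate 1, and MYOZ2 of 2.84 that was 2.0 without ZEB2 shRNA day 6 replicate 1. TCAP had a value of 1.69 that was 2.66 without ZNF503 shRNA day 6 replicate 2, and its test was lost without ZEB2 shRNA day 6 replicate 1 or ZNF503 shRNA day 6 replicate 1. For TCAP the difference between the ZEB2 shRNA and NKX2-5 shRNA lines did not pass 5% FDR (log2 fold change -1.12 in NKX2-5 shRNA against ZEB2 shRNA cells, SE 0.47, adjusted p = 0.0743).

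**Figure D3:**
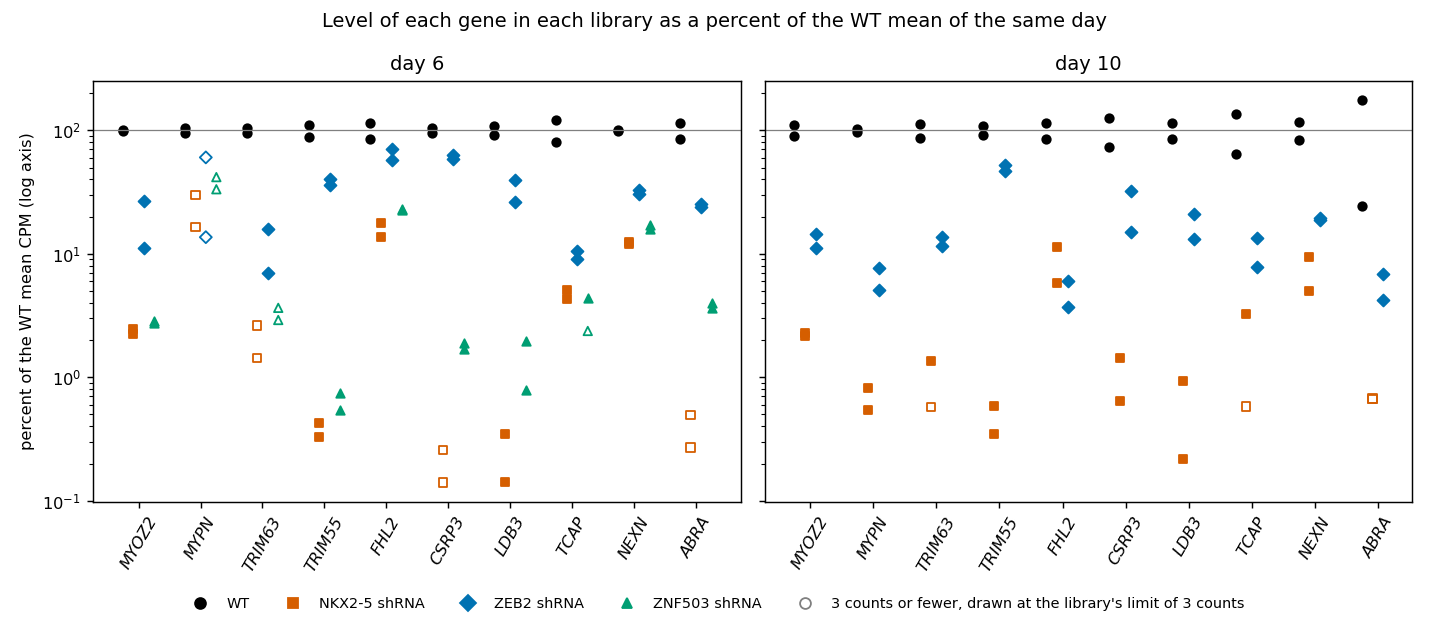
Level of each gene in single libraries as a percent of the mean WT level of the same day, on a log y axis, at day 6 (left) and day 10 (right). Open points have 3 counts or fewer and are drawn at the limit of 3 counts. ZEB2 shRNA libraries lie between WT and the other lines for most genes, and the 2 lines overlap for FHL2 at day 10.

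At day 10 the NKX2-5 shRNA cells were called lower in all 10 genes, against 2.85% of 17002 genes, and all 10 passed 5% FDR (20.6%). Every NKX2-5 shRNA library lay below both WT libraries, with no all-gene share given for this. The median log2 fold change was -6.70 (0.03 over all genes), unchanged with ABRA at its bound, and the median level was 0.948% of WT. ABRA had no count and was at least 149-fold lower. TRIM55 was at 0.62 and 1.04 CPM, with -7.73 on the log2 scale (SE 0.31, adjusted p = 9.39e-05, edgeR's quasi-likelihood test). MYPN, at 0.191 and 0.284 CPM against 33.8 and 36 CPM, had -7.16 on the log2 scale (SE 0.42, adjusted p = 0.000165). MYOZ2 was at 2.81 and 2.65 CPM (-5.49, SE 0.27, adjusted p = 0.000151). The 2 NKX2-5 shRNA libraries differed from each other in several genes. TRIM63 had 7 and 2 counts, and its log2 fold change of -6.81 was -7.95 without replicate 1 and -6.18 without replicate 2. CSRP3 had 8 and 18 counts, with -6.59 and, without replicate 2, -7.26. LDB3 was at 1.24 CPM in replicate 1 and 5.34 CPM in replicate 2, and its log2 fold change of -7.44 was -6.74 without replicate 1 and -8.83 without replicate 2. TCAP had 0 and 17 counts in them, so its log2 fold change of -5.92 (SE 1.01) was -4.94 without replicate 1 and -5.29 without WT day 10 replicate 3, and cannot be stated as a fold without replicate 2. FHL2, at 18.4 and 9.5 CPM, and NEXN, at 10.6 and 19.9 CPM, kept the most, 8.54% and 7.22% of WT. Blood markers (7 genes) summed to 1517 to 1824 CPM in these libraries against 14.4 to 71.5 CPM in WT. Endoderm and hepatic markers (6 genes) summed to 26944 to 38519 against 1465 to 3598 CPM. Epicardial and fibroblast markers (6 genes) summed to 713 to 1127 against 45.3 to 171 CPM. Endothelial markers (5 genes) summed to 159 to 254 against 344 to 439 CPM, though their median log2 fold change was 3.67. The part of these lists in the result was not tested.

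ZEB2 shRNA cells at day 10 had 2 genes called, MYPN and FHL2 (0.482% of all genes were called lower). At 5% FDR all 10 were lower (7.68% of all genes), with a median log2 fold change of -2.99. MYPN was at 2.66 and 1.79 CPM against 33.8 and 36 CPM, with -3.97 on the log2 scale (SE 0.33, adjusted p = 0.00202, edgeR's quasi-likelihood test). FHL2 was at 9.92 and 6.02 CPM against 187 and 140.0 CPM, with -4.36 on the log2 scale (SE 0.42, adjusted p = 0.00222) and 4.87% ± 1.69 of WT (SD, n = 2), a share within the spread of those of ABRA (5.53% ± 1.85) and MYPN (6.37% ± 1.75). TRIM55 differed least from WT, at 92.8 and 83.5 CPM or 49.4% ± 3.68 of WT, with -1.02 on the log2 scale (SE 0.22, adjusted p = 0.0203, edgeR's quasi-likelihood test). The groups did not overlap in any of the 10 genes, with no all-gene share given for this. MYOZ2 was at 17.8 and 13.7 CPM (log2 fold change -2.97, adjusted p = 0.00202) and NEXN at 41.2 and 39.8 CPM (-2.39, adjusted p = 0.00454). Leaving out a library changed many of these results. No gene was called at 8-fold and 1% FDR without any 1 of the 4 libraries, and at 5% FDR 4 genes were left without ZEB2 shRNA replicate 3, 3 without ZEB2 shRNA replicate 4, 4 without WT replicate 3 and 6 without WT replicate 4. MYOZ2, MYPN and FHL2 passed 5% FDR in each of these. ABRA, at 0.896 and 1.45 CPM, had a log2 fold change of -4.20 that was -2.14 without WT day 10 replicate 3 and -4.99 without replicate 4. TRIM63 was at 3.37 and 2.86 CPM (-3.00, SE 0.41, adjusted p = 0.00478) and LDB3 at 121 and 75.6 CPM (-2.55, SE 0.54, adjusted p = 0.0201). CSRP3 was at 19.2 and 8.92 CPM (-2.09, and -2.75 without ZEB2 shRNA replicate 3), and TCAP at 3.31 and 1.92 CPM (-3.24, and -2.61 without WT replicate 3). Epicardial and fibroblast markers (6 genes) summed to 788 to 961 CPM in ZEB2 shRNA cells against 45.3 to 171 CPM in WT. At 5% FDR 4 were higher and 1 lower (10.5% and 7.68% of all genes). Endoderm and hepatic markers (6 genes) summed to 6429 to 7794 against 1465 to 3598 CPM, with 4 higher (10.5% of all genes). Endothelial markers (5 genes) summed to 364 to 435 against 344 to 439 CPM, with 3 higher (again 10.5% of all genes). The part of these 3 lists in the result was not tested.

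Between the 2 lines at day 10, 5 genes were called lower in NKX2-5 shRNA than in ZEB2 shRNA cells (1.19% of all genes), MYPN, TRIM63, TRIM55, CSRP3 and LDB3, and 8 were lower at 5% FDR (10.8%), with MYOZ2, NEXN and ABRA added. NEXN lost that test without ZEB2 shRNA replicate 3 or replicate 4, and ABRA without any 1 of the 4 libraries. LDB3 had a log2 fold change of -4.89 that was -4.2 without NKX2-5 shRNA replicate 1 and -6.29 without replicate 2. TRIM63 had -3.82, which was -4.96 and -3.19 without these, and CSRP3 -4.49, which was -5.17 without NKX2-5 shRNA replicate 2 and -3.84 without ZEB2 shRNA replicate 3. The count of calls was 1 without ZEB2 shRNA replicate 3 and 2 without its replicate 4. Of the 5 called genes TRIM55 differed most, with -6.71 on the log2 scale (SE 0.30, adjusted p = 0.000322, edgeR's quasi-likelihood test). ABRA, with no count in NKX2-5 shRNA cells, was at least 8.24-fold lower in them (adjusted p = 0.0476). FHL2 did not pass, with 0.82 on the log2 scale (SE 0.38, adjusted p = 0.154) and libraries that overlap, nor did TCAP (-2.68, SE 0.97, adjusted p = 0.0856).

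The change from day 6 to day 10 was then compared between lines, which share the WT libraries. FHL2 was the 1 gene whose change differed between ZEB2 shRNA and WT cells at 5% FDR. In ZEB2 shRNA cells FHL2 went from 17.1 and 13.9 CPM at day 6 down to 9.92 and 6.02 CPM at day 10, with -0.98 on the log2 scale (SE 0.22, adjusted p = 0.00148, edgeR's quasi-likelihood test), while it rose in WT cells (above). The difference between these changes was -3.76 (SE 0.47, adjusted p = 0.00333) in an interaction term, the 1 call among the 10 genes and 1 of 12 genes called in that direction of 17447 tested (0.0688%), and the 1 gene lower at 5% FDR (2.48%). This term stayed under 5% FDR without each of the 8 libraries (values -4.17 to -3.45), but was called, under 1% FDR, only in the fit without WT day 6 replicate 1. ABRA fell in ZEB2 shRNA cells from 5.63 and 5.31 to 0.896 and 1.45 CPM, by 2.26 on the log2 scale (SE 0.37, adjusted p = 0.000197), and NEXN fell by 0.62 (SE 0.15, adjusted p = 0.00263). CSRP3 also passed, with a log2 fold change of -0.90 (adjusted p = 0.0146) that lost the test without ZEB2 shRNA day 6 replicate 1 or day 10 replicate 4 and was -1.59 without day 10 replicate 3. For ABRA and CSRP3 the difference from WT was not past the test, at -2.21 (SE 0.99, adjusted p = 0.225) and -1.40 (SE 0.52, adjusted p = 0.144).

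The genes that rose in ZEB2 shRNA cells were among those that rose in WT cells. MYPN went from 0 counts to 86 and 42, at least 16.4-fold, the 1 gene of 10 called higher there (3.48% of all genes). TCAP rose by 1.99 in both ZEB2 shRNA (SE 0.41, adjusted p = 0.00081) and WT cells, and TRIM63 by 2.49 in ZEB2 shRNA cells, which was 3.35 without ZEB2 shRNA day 6 replicate 1. LDB3 rose by 1.49 (SE 0.22, adjusted p = 3.71e-05) to 121 and 75.6 CPM. MYOZ2 rose by 0.99 (adjusted p = 0.0211), a test lost without ZEB2 shRNA day 6 replicate 2 or day 10 replicate 3 and with all rows of a gene summed, with a value of 1.81 without day 6 replicate 1. At 5% FDR 5 of the 10 rose and 4 fell, against 32.3% and 31% of all genes.

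In NKX2-5 shRNA cells 7 genes could be tested between these days and none was called by edgeR's quasi-likelihood test (5.54% of all genes were called). An unadjusted p under 0.05 was found in 3, DESeq2 called 1 and the edgeR exact test 2, with no all-gene share given for these. The 3 genes with an unadjusted p under 0.05, FHL2, LDB3 and CSRP3, were higher at 5% FDR (24.1% of all genes). FHL2 rose from 3.27 and 4.23 to 18.4 and 9.5 CPM, by 1.83 on the log2 scale (SE 0.34, adjusted p = 0.00338). CSRP3 went from 0 and 2 to 8 and 18 counts, 23.8-fold (counting interval 5.96 to 207), a test that was lost without NKX2-5 shRNA day 6 replicate 1 or replicate 2 and with DESeq2. LDB3, at 1.24 and 5.34 CPM at day 10, had a log2 fold change of 3.56 that was lost without day 6 replicate 1, and was 4.45 without day 6 replicate 2, 4.26 without day 10 replicate 1 and 2.15 without day 10 replicate 2. Against the change in WT cells, none of the 10 was called by the interaction term (2.91% of all genes were). CSRP3 alone was higher at 5% FDR (14.5% of all genes). An unadjusted p under 0.05 was found in 2, with no all-gene share given. FHL2 did not pass 5% FDR in this term (-0.86, SE 0.47, adjusted p = 0.201, edgeR's quasi-likelihood test).

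**Figure D4:**
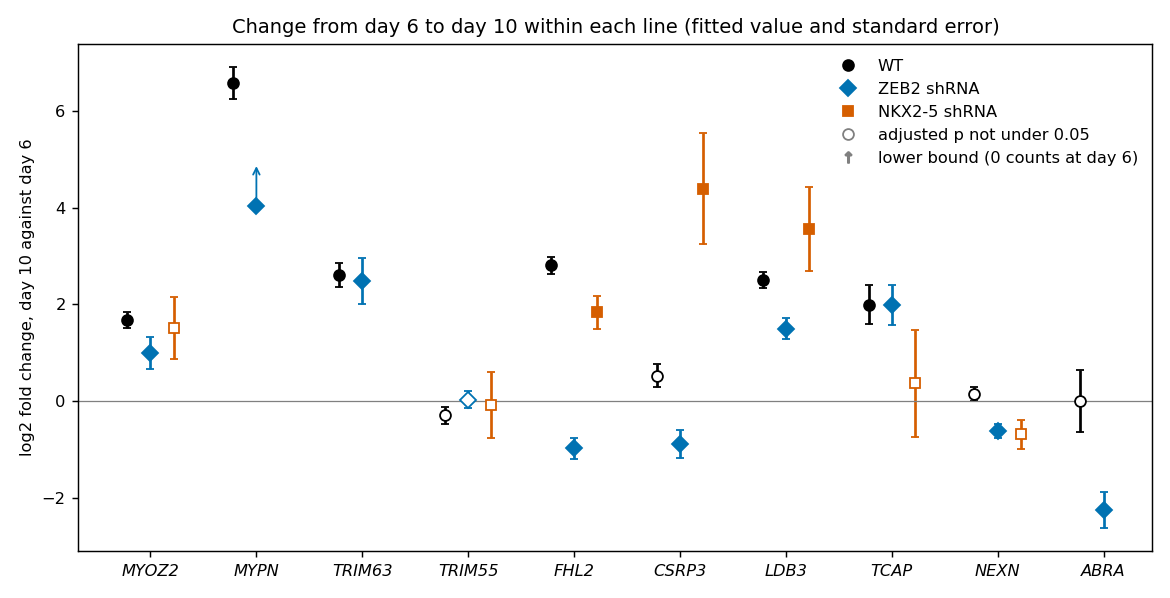
Fitted log2 fold change of day 10 against day 6 on the y axis, for each gene in WT, ZEB2 shRNA and NKX2-5 shRNA cells, with standard errors as bars. Open points did not pass 5% FDR, the arrow marks a lower bound, and genes not tested have no point. FHL2 is at 2.81 in WT and -0.98 in ZEB2 shRNA cells.

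Other RefSeq rows of a gene share most reads with the row used, and their ratio to it describes which transcript regions were read. LDB3 has long and short forms. The short-form row NM_001171611 held 34.6% ± 0.389 of the counts of the long row in WT cells at day 6 and 35.4% ± 4.9 at day 10, and 42.0% ± 2.79 in ZEB2 shRNA cells at day 10 (SD, n = 2). In the 16 libraries of days 0 and 2, where the long row had 2 to 66 counts, that row had 0 to 2. FHL2 row NM_201557 held 86.3% to 96.6% of the counts of the row used in 14 groups and 101% to 102% in WT cells at day 10. TRIM55 row NM_184087 held 66.8% and 67.5% in WT cells at days 6 and 10 and 64.7% and 65.6% in ZEB2 shRNA cells. Antisense genes overlap NEXN, CSRP3 and FHL2, and an unnamed gene on the same strand overlaps LDB3. Whether counting used the strand is not given in the sources used here, so reads of such pairs cannot be told apart.

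Other genes of the same structures were read as 3 lists. Of 23 further Z-disc and titin-associated genes, 21 were tested. In NKX2-5 shRNA cells 12 were called lower at day 6 and 14 at day 10, in ZNF503 shRNA cells 11 at day 6, and in ZEB2 shRNA cells 0 at day 6 and 3 at day 10, with none called higher. Of all genes, 3.42% and 2.85% were called lower in NKX2-5 shRNA cells at these days, 2.91% in ZNF503 shRNA cells at day 6, and 0.225% and 0.482% in ZEB2 shRNA cells. In ZEB2 shRNA cells at day 6, 14 of them passed 5% FDR, all lower (5.33% of all genes). Their median log2 fold change was -4.0, -4.02, -4.39, -1.15 and -1.81 in that order, against -0.03 to 0.03 over all genes. SMPX, a small muscle protein, and MYBPC3, cardiac myosin-binding protein C, were furthest below WT in NKX2-5 shRNA cells at day 6. They were at 0.0752 and 0.155 CPM against 105 and 214 CPM in WT. The limit of 3 counts in these NKX2-5 shRNA libraries was 0.11 and 0.0601 CPM. SMPX was thus near the limit, and no fold is given for it. In ZEB2 shRNA cells at day 10 the largest falls were in XIRP2 (log2 fold change -4.33, SE 0.70, adjusted p = 0.00826) and the M-band gene MYOM1 (-3.76, SE 0.33, adjusted p = 0.00202), both from edgeR's quasi-likelihood test.

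Of 27 genes of muscle stress, protein turnover and chaperones, 26 were tested at day 6 and 27 at day 10. NKX2-5 shRNA cells had 9 and 8 called lower at these days (3.42% and 2.85% of all genes), ZNF503 shRNA cells 8 at day 6 (2.91%) and ZEB2 shRNA cells 0 at day 6 (0.225%) and 2 at day 10 (0.482%). The myosin chaperone UNC45B and its partner methyltransferase SMYD1 were at 547 and 296 CPM in WT and at 0.406 and 0.177 CPM in NKX2-5 shRNA cells at day 6. FBXO40, a muscle ubiquitin ligase component, had -4.85 on the log2 scale (SE 0.49, adjusted p = 0.00237) in ZEB2 shRNA cells at day 10. The median of this list lay between -0.59 and -0.28 over the 5 comparisons with WT. None of its genes was called higher. At 5% FDR in NKX2-5 shRNA cells at day 6, 14 were lower (24.7% of all genes) and 4 higher (24.5%), in ZNF503 shRNA cells 12 were lower (28.5%) and 6 higher (27.2%), and in ZEB2 shRNA cells 11 were lower (5.33%) and 2 higher (5.67%). Of 16 paralogs of the 10 genes, 14 were tested, and 3 were called lower in NKX2-5 shRNA and in ZNF503 shRNA cells at day 6, 2 in NKX2-5 shRNA cells at day 10 and none in ZEB2 shRNA cells, beside the all-gene shares just given. The called paralogs included TRIM54 (MuRF3), the third member of the MuRF family, at 28.0 CPM in WT and 0.0768 CPM in NKX2-5 shRNA cells at day 6, and CSRP2, at 861 CPM in WT and 35.7 CPM in NKX2-5 shRNA cells. TRIM54 was near the limit of 3 counts in these NKX2-5 shRNA libraries (0.11 and 0.0601 CPM), so no fold is given for it.

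Across the means of the 15 groups, the genes whose pattern was closest to each of the 10 were found by Pearson's r of log2(CPM + 1), over 14670 other genes with at least 5 CPM in some group. The groups share lines and days, and these values are descriptions. Groups where 2 genes are both near 0 add to their r. MYPN was at 34.9 CPM in WT and 2.22 CPM in ZEB2 shRNA cells at day 10. In every other group it was at most 0.366 CPM, so its r rests on few groups. MYPN was closest to LRRC10 (r = 1.0), FBXO40 (0.991) and LRRC39 (0.986), and LDB3 to HSPB7 (0.994), ACTN2 (0.994) and GPR162 (0.991). CSRP3 was closest to SMYD1 (0.995) and TRIM55 to XIRP1 (0.996). NEXN was closest to SH3GLB1 (0.984) and the troponin gene TNNC1 (0.981), and ABRA to PLN (0.983), the regulator of the calcium pump. FHL2, with a mean of 3.75 CPM or more in every group, had no gene as close, with 0.921 for FRMPD4 and 0.916 for SYPL2. Among the 10 genes themselves, TRIM55 and CSRP3 had the highest r (0.991) and FHL2 and NEXN the lowest (0.444). The median r with the other 9 was lowest for FHL2 (0.623) and highest for MYOZ2 (0.936).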

How the data were processed

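RNA-seq libraries of 15 groups were read from 1 deposited table of raw read counts. According to the methods and labels, the authors made these counts from stranded total RNA libraries with TopHat2 2.0.14 and Bowtie2 2.2.1.0 on hg19 (GRCh37) and counted reads per RefSeq gene with RSeQC, without normalization. Of 41627 accessions, 40281 (96.8%, with 97.1% of the counts) matched a RefSeq symbol, and the row with the largest total was used for each of 23185 symbols. The 4 day 10 columns for replicates 1 and 2 of WT and of ZEB2 shRNA cells hold 42704 values that do not follow the accessions (median Spearman correlation with replicate 3 of 0.0079 to 0.0131, against 0.9839 and 0.993 for replicate 4), so 30 of 34 libraries were used.

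CPM, TMM normalization and tests came from edgeR 4.0.16 in R 4.3.3: filterByExpr, the quasi-likelihood test and Benjamini-Hochberg adjustment. Libraries of 1 day were fitted together for comparisons between lines, and libraries of 1 line for changes over time. Calls used the study's thresholds, which at days 6 and 10 are 8-fold and 1% FDR and at the earlier days are those given with the results. Where a group had no count, the fold is a bound against 3 counts per library, and with 1 to 3 counts in all it is a ratio with an exact 95% interval, which covers counting error only. Named genes were the 10, the 3 targets, up to 2 called rises and 2 called falls per list and the 3 closest genes by pattern. The genes and lists were chosen with earlier results of these data known. Replicates of a group differed by more than sampling noise (chi-square per gene 5.16 to 102), and p-values measure only the spread between samples described as biological replicates. Alternatives were DESeq2 1.42.0, the edgeR exact test, other scalings, no filter, the sum of rows, 1 fit of all libraries, a replicate block and leaving out each library. The fit was tested on simulated data.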

Additional observations from a re-analysis of the deposited data

Results flagged for a closer look

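The change of FHL2 from day 6 to day 10 differed between ZEB2 shRNA and WT cells, by -3.76 on the log2 scale (standard error 0.47, adjusted p = 0.00333, edgeR's quasi-likelihood test of the interaction term). Both WT libraries of day 10 lay above those of day 6, and both ZEB2 shRNA libraries of day 10 lay below those of day 6.

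The change of CSRP3 over the same days differed between NKX2-5 shRNA and WT cells, by 3.90 (standard error 1.09, adjusted p = 0.0252, the same test). CSRP3 was the 1 gene of the 10 higher at 5% FDR in this term, against 14.5% of all genes. The fitted value of CSRP3 rests on 2 counts in all in NKX2-5 shRNA cells at day 6 and on 8 and 18 counts at day 10. It was 6.57 without NKX2-5 shRNA day 6 replicate 2 and 3.21 without NKX2-5 shRNA day 10 replicate 2, and the test at 5% FDR was lost without either of them, and without NKX2-5 shRNA day 6 replicate 1, WT day 6 replicate 1 or WT day 10 replicate 4.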

How the results depend on the processing

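Of 124 fold changes of single genes, no alternative turned a direction, and 73 of 1450 alternative values were no longer past 5% FDR, mostly with 1 library left out. With TMM factors left out, the all-gene median moved by up to 0.182 (ZEB2 shRNA against WT, day 10), and no direction of the 10 genes changed. In ZEB2 shRNA cells at day 10, LDB3 and TCAP lost 5% FDR with rows summed, and TCAP with DESeq2. The 1 fit of all libraries lost FHL2 in ZNF503 shRNA cells at day 2, CSRP3 and ABRA in ZEB2 shRNA cells at day 6, FHL2 in WT cells at day 6 against day 0 and, against ZNF503 shRNA cells at day 6, NEXN in NKX2-5 shRNA and TCAP in ZEB2 shRNA cells. The causes were not tested. With 2 libraries a group, differences under the spread of these pairs could not be shown.

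Counts of called genes moved as follows. Apart from the 5% FDR counts, whose shares stand with the results, no share of all genes is given for these settings or those that follow. The counts only describe how calls depend on the setting. At 5% FDR with no fold threshold they were 1 in ZNF503 shRNA against WT at day 2, 8 and 10 in ZEB2 shRNA against WT at days 6 and 10, 4 in NKX2-5 shRNA against ZNF503 shRNA and 9 in ZEB2 shRNA against ZNF503 shRNA at day 6, 8 in NKX2-5 shRNA against ZEB2 shRNA at day 10, 2 in WT at day 2 against day 0, 6, 3 and 9 in WT, NKX2-5 shRNA and ZEB2 shRNA cells at day 10 against day 6, and 1 for the NKX2-5 shRNA interaction. DESeq2 called 2 and 4 in ZEB2 shRNA against WT at days 6 and 10, 1 in NKX2-5 shRNA cells at day 10 against day 6 and 1 for the NKX2-5 shRNA interaction. The edgeR exact test called 4 in ZEB2 shRNA against WT at day 10, 0 in WT at day 2 against day 0 and 2 in NKX2-5 shRNA cells at day 10 against day 6. The 1 fit of all libraries called 2 and 4 in ZEB2 shRNA against WT at days 6 and 10, 1 in NKX2-5 shRNA against ZNF503 shRNA, 4 in NKX2-5 shRNA cells at day 10 against day 6 and 1 for the NKX2-5 shRNA interaction. With rows summed 1 was called in NKX2-5 shRNA against WT at day 2, and with no filter 1 in NKX2-5 shRNA cells at day 10 against day 6.

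With 1 library left out, counts ran from 0 to 2 in ZEB2 shRNA against WT at day 6, 0 to 0 at day 10, 1 to 6 in NKX2-5 shRNA against ZEB2 shRNA at day 10, 1 to 2 in WT at day 2 against day 0 and at day 10 against day 6, 0 to 2 in NKX2-5 shRNA and 1 to 2 in ZEB2 shRNA cells at day 10 against day 6, and 0 to 1 for both interactions.

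The labels give no pairing, and the replicate numbers did not pair the samples at every day. Deviations of same-numbered libraries correlated between -0.281 and 0.395 over 19 pairs of groups. The 4 over 0.1 were among the 6 pairs of day 2 (0.011 to 0.395), where libraries of the same number leaned together, and those of other days were at most 0.087. With a replicate block, 2 and 4 genes were called in ZEB2 shRNA against WT at days 6 and 10, and the other 14 of 16 counts that allowed the block stayed within 1.5-fold. The block could not be fitted where the replicate numbers of the groups do not match, which held for NKX2-5 shRNA against the other lines at day 10, for WT and ZEB2 shRNA cells at day 10 against earlier days and for the interactions. In the first 2 kinds and in the NKX2-5 shRNA interaction, a difference between replicate sets cannot be told apart from the effect.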
